A study of Homo sapiens with 9 samples.

Results

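The regions described here were more accessible under the antisense oligonucleotide ASO10 than under the control oligonucleotide NCA, while their mean under ASO2 stayed near that of NCA. They were selected on the counts themselves, given as CPM, the count divided by the library's total and multiplied by 1000000. A region was a member when its mean CPM over the 9 libraries was at least 2, each ASO10 library lay above each NCA library, the ASO10 mean was at least 35% above the NCA mean, and the ASO2 mean was within 15% of the NCA mean. Of 148797 regions, 72424 reached the CPM minimum and 627 met every criterion. All of these contrasts chose the members, so the accessibility values below are a description and carry no test.

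The cells were SK-N-BE(2)c, an established line from a human neuroblastoma, transfected by lipofectamine with 100 nM of a single oligonucleotide and collected after 48 h. ATAC-seq reads open chromatin through the Tn5 transposase, which places sequencing adapters where DNA is accessible. ASO2 and ASO10 both target NESPR, a long non-coding RNA, and NCA serves as the negative control. Each group had 3 libraries, numbered 1 to 3 in the labels, which do not say whether they came from separate cultures. All groups are of 1 cell line, and the level of NESPR itself was not analysed here. Library totals ranged from 7293565 to 10948569 counts, and replicates had a biological coefficient of variation of 23.5%. Of 20 genes that mark the adrenergic state of neuroblastoma, 18 had a region of at least 2 CPM within 1 kb of their start, among them HAND2 at 22.8 CPM and GATA3 at 28.8 CPM.

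Open chromatin lies mainly at gene starts, where the transcription machinery assembles, and at enhancers, which can lie inside genes or far from them. Gene-start regions are open in most cell types, whereas enhancers differ more between cell types and states. Antisense oligonucleotides bind a complementary RNA, and those that recruit RNase H lead to its cleavage. In cells under stress, the integrated stress response slows translation while transcription factors such as ATF4 raise the expression of a set of genes that includes SESN2, DDIT4 and PPP1R15A.

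The promoter sequences of 6 members at gene starts are given as examples. They were chosen by their genes and not to be typical of the members. They are the starts of 4 stress-response genes (DDIT4, SESN2, PPP1R15A and HERPUD1), of JUND and of a histone gene, H4C5, and their accessibility is given further on. Each is the 250 bases before the start, from RefSeq (GRCh38.p14), written 5′ to 3′ on the gene's strand. Capitals mark matches, on either strand, to any of the 11 motifs listed with the promoter results.
DDIT4, chr10:72273674-72273923, plus strand: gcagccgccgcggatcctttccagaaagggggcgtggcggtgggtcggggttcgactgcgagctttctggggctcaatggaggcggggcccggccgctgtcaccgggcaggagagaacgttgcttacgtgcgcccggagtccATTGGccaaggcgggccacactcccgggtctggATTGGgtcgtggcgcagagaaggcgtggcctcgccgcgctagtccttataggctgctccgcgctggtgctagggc
SESN2, chr1:28259268-28259517, plus strand: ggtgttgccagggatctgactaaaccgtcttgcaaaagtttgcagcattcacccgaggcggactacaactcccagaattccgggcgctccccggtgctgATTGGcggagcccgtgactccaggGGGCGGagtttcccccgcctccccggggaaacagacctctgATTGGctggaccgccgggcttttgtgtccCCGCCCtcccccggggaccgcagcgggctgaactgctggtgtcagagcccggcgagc
PPP1R15A, chr19:48872171-48872420, plus strand: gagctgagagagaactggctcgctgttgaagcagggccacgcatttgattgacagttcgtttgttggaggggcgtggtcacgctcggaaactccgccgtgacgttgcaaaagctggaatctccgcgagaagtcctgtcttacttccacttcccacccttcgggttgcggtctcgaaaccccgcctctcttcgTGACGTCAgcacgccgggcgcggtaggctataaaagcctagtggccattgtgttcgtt
HERPUD1, chr16:56931892-56932141, plus strand: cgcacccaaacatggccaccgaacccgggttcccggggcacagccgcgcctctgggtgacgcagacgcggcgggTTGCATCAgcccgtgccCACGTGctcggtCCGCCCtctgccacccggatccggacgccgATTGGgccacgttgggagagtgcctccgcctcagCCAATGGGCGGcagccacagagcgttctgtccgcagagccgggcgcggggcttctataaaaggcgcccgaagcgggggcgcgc
JUND, chr19:18281623-18281872, minus strand: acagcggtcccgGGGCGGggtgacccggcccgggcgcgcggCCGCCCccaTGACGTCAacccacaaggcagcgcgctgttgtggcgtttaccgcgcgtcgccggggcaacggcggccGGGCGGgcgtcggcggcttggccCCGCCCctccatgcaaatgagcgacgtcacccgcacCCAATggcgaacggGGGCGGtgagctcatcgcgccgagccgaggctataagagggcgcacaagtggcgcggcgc
H4C5, chr6:26204360-26204609, plus strand: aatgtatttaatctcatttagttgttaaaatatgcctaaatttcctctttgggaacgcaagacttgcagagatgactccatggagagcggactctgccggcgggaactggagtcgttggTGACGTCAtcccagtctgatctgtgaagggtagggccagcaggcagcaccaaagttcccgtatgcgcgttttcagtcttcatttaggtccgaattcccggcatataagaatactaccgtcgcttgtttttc
The CCAAT motif occurred in 4 of these sequences, between 74 and 151 bases before the start (DDIT4 at 108 and 75, HERPUD1 at 117 and 83, JUND at 74, SESN2 at 151 and 86). The cAMP response element TGACGTCA occurred 58 bases before the start of PPP1R15A, 131 before that of H4C5 and 200 before that of JUND. These 6 do not stand for all members. Over the 295 promoter windows at members, CCAAT was in 47.8% and TGACGTCA in 4.07%. In the windows at all regions of at least 2 CPM the shares were 35.1% and 3.21%.

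The 627 members were 0.866% of the regions at or above 2 CPM. Each ASO10 library lay above each NCA library in 6905 such regions, or percent called 9.53, and 3648 of these had an ASO10 mean at least 35% above the NCA mean. Of those 3648, the ASO2 mean was more than 15% above the NCA mean in 2935 and more than 15% below it in 86, which left the 627. The ratio of ASO10 to NCA means ran from 1.3501 to 2.63 with a median of 1.45, and 234 members had a ratio of at least 1.5 and 16 of at least 2. The ratio of ASO2 to NCA means had a median of 1.05 and was above 1 in 449 members and below 1 in 178. Just inside the threshold were the regions at the starts of CLIC4 (1.35010), of PFN1, which also overlaps ENO3 (1.35018), and of SOX4 (1.35085). Just outside it were regions in NYAP2 (1.34965), near HYLS1 (1.34960) and at TUBB (1.34958).

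The 3 ASO10 libraries stood at similar heights over the members. Set to the NCA mean of each region, the median member was at 1.48, 1.424 and 1.46 in ASO10 libraries 1 to 3, and at 1.03, 1.06 and 1.02 in the ASO2 libraries. The other gene-start regions of at least 2 CPM had medians of 1.07, 1.02 and 1.03 in the same ASO10 libraries, and the regions elsewhere 0.961, 0.963 and 0.943. The coefficient of variation within a group had a median of 13.7% in NCA, 16.54% in ASO2 and 11.3% in ASO10. ASO2 and NCA libraries overlapped in range in 609 members, all ASO2 libraries lay above NCA in 13 and below in 5. In 435 members (69.4%) each ASO10 library also lay above each ASO2 library, and in the other 192 the ASO10 and ASO2 ranges touched or overlapped, so the wording "ASO10 only" rests on group means there.

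**Figure D1:**
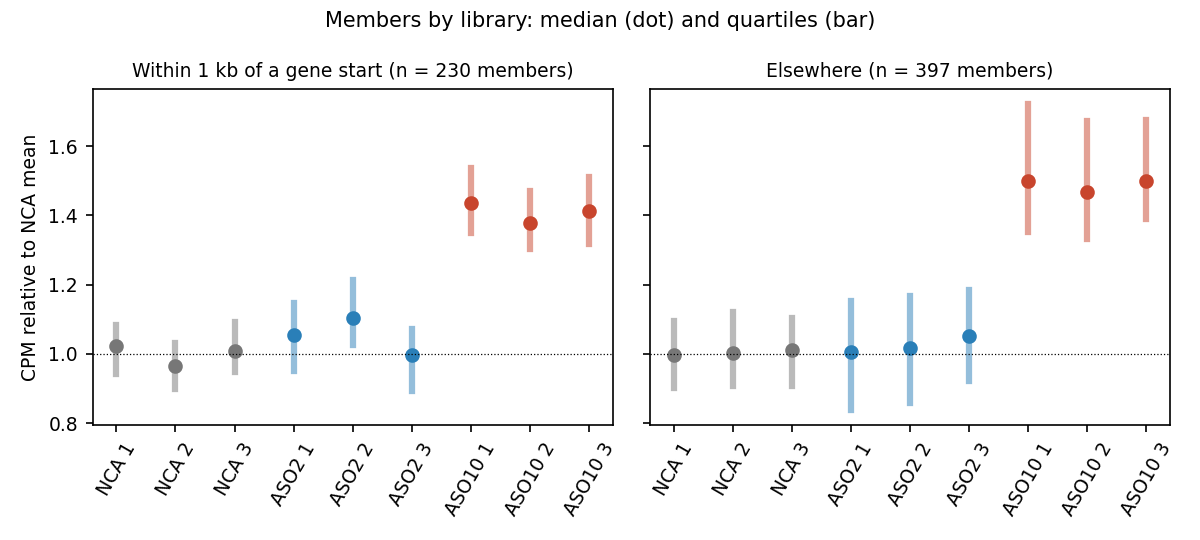
CPM of the 627 members relative to the NCA mean of each region, by library, for the 230 members within 1 kb of a protein-coding gene start and the 397 elsewhere; dots are medians and bars span the quartiles. The ASO10 medians sit between 1.38 and 1.4997 and the ASO2 medians between 0.996 and 1.104.

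All 627 members passed the count filter of edgeR, which kept 119417 regions. With p-values from the edgeR quasi-likelihood test, adjusted over those regions by the Benjamini-Hochberg method, 173 members were called higher under ASO10 than under NCA at an adjusted p under 0.05 and 443 had an unadjusted p under 0.05. Over all tested regions 1046 were called higher, percent called 0.876. Against ASO2, 127 members were called higher under ASO10 (percent called 0.682 over all regions). Against NCA, 0 members were called under ASO2, and 0 had an unadjusted p under 0.05 by edgeR, beside a percent called of 5.6 over all regions in either direction; DESeq2 and limma-voom also called 0. The rule used each of these contrasts, so the counts describe the members. The 173 dropped to 50 without ASO10 replicate 1 or 3, 51 without NCA replicate 2, 70 without NCA replicate 1, 94 without NCA replicate 3 and 111 without ASO10 replicate 2. The 127 dropped to 40, 75 and 42 without ASO10 replicates 1, 2 and 3, and to 50 and 47 without ASO2 replicates 1 and 3.

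The commonest location of a member was a gene start. Of the 627, 230 (36.7%) overlapped or lay within 1 kb of the start of a protein-coding gene, against 18.2% of all regions of at least 2 CPM. A further 161 (25.7%, against 36.8%) lay inside a protein-coding gene away from its start, 143 (22.8%, against 25.0%) outside genes but within 100 kb of one, and 93 (14.8%, against 18.9%) farther away. Exon and intron structure was not used here. The share at gene starts depended on the scaling: when each library's trend with abundance was removed by loess offsets, the same rule gave 705 regions, 450 of them among the 627, and 21.0% lay at gene starts, against 18.2% of regions. Leaving out 1 library gave shares from 25.4% to 37.2%.

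**Figure D2:**
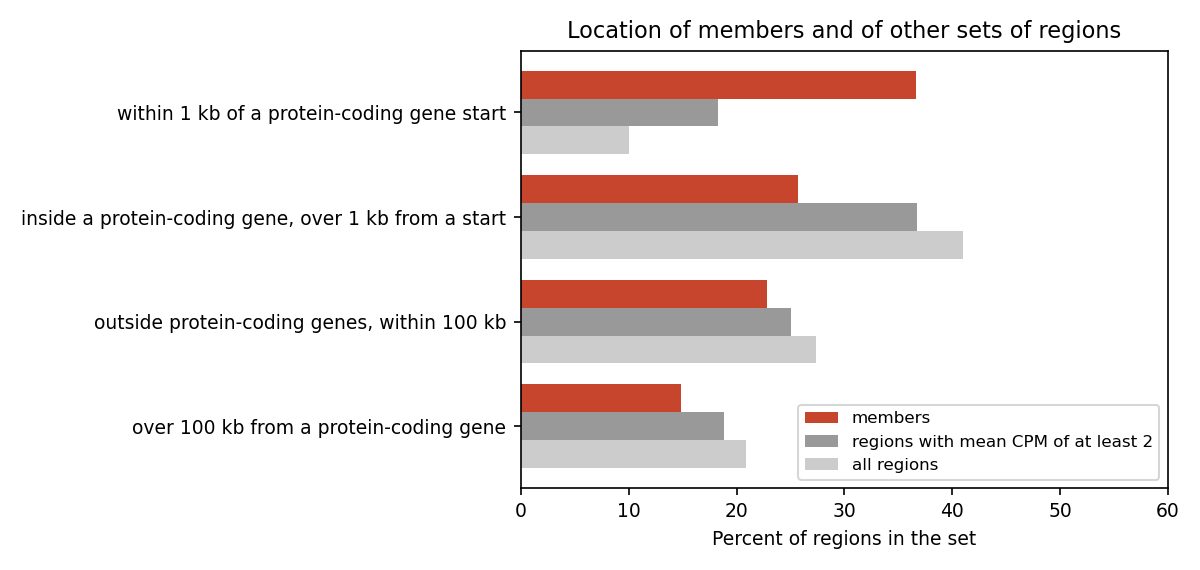
Percent of regions in each of 4 location classes, for the 627 members, the 72424 regions of at least 2 CPM and all 148797 regions. The members' bar at gene starts reaches 36.7%, against 18.2% and 9.98%.

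Gene-start members had a higher median signal and a lower median ratio than the other classes. Their mean CPM had a median of 18.1 and their ratio a median of 1.39, with a highest value of 1.90. Members inside genes had a median of 3.38 CPM and a ratio of 1.502, those within 100 kb of a gene 4.77 CPM and 1.503, and those beyond 100 kb 3.77 CPM and 1.49. The shares were also taken within ranges of signal. Between 8 and 16 CPM, 61.9% of 113 members lay at a gene start, against 28.2% of 12480 regions. Between 4 and 8 CPM it was 19.4% of 108 members against 9.64% of regions, and between 2 and 4 CPM 4.50% of 222 members against 4.28%. Between 16 and 32 CPM it was 70.5% of 122 members against 57.3% of regions, whereas between 32 and 64 CPM it was 67.3% of 55 members against 71.2%. Of the 7 members above 64 CPM, 6 lay at a gene start (85.7%), against 33.2% of regions. The median ASO10 to NCA ratio over all regions moved with signal too, from 0.947 at 2 to 4 CPM to 1.09 at 32 to 64 CPM; its part in the location of the members was not tested.

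Small nuclear RNA (snRNA) genes were among the neighbours of the members. The RNAs of many of them form the core of the spliceosome. The class as annotated also holds genes of other RNAs, such as RN7SK, RNU7-1 and the SNAR genes. This group was chosen after its values were seen. Of 70 regions of at least 2 CPM that overlapped an snRNA gene, 20 were members (28.6%, against 0.866% of all regions of at least 2 CPM). By edgeR, 31 were called higher and 0 lower. The snRNA regions had a median signal of 31.4 CPM. At nearer signal, members were 1.54% of all regions from 16 to 32 CPM and 2.14% from 32 to 64 CPM. Of other small RNA classes, 0 of 213 regions over tRNA genes and 0 of 29 over rRNA genes were members, and 3 and 8 of them were called higher, beside 0.866% members and 0.876% called higher over all regions. At that share of members, 0 in sets of this size is not a result about these classes. With loess offsets the snRNA count was 11. The snRNA genes occur in near-identical copies, and how the authors assigned reads that match several copies is not given in the sources used here, so values of single copies are uncertain.

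Genes of U2 snRNA, which pairs with the branch point of introns, lie in a tandem array on chromosome 17. The table of genes names 1 copy there, RNU2-1, and lists further snRNA genes beside it without a family name. Away from the array, the region over RNU2-2 on chromosome 11 had a ratio of 1.34 (edgeR adjusted p = 0.0331). That over RNU2-63P on chromosome 2 had a ratio of 0.950, and neither was a member. At RNU2-1 (chr17:43233452-43234711, GRCh38) the NCA libraries had 23.5, 25.5 and 27.8 CPM, the ASO2 libraries 27.4, 31.4 and 25.5, and the ASO10 libraries 34.5, 39.9 and 38.7. The ASO10 libraries lay above all others, and ASO2 overlapped NCA. In all 14 regions of the locus that overlap an snRNA gene, ASO10 libraries lay above NCA libraries, with ratios from 1.18 to 1.81 (median 1.60). Of the 14, 12 were called higher by edgeR, beside 0.876% over all tested regions. Members were 7 of the 14, beside 0.866% of all regions of at least 2 CPM. The ASO2 ratios of the 14 ran from 0.990 to 1.37 with a median of 1.13. In 6 of the 14 the ASO2 mean was more than 15% above NCA, which kept them out of the rule. The 15 other regions around the array had ASO10 ratios from 0.619 to 1.57 with a median of 1.08, and 2 were called higher and 1 was a member.

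**Figure D3:**
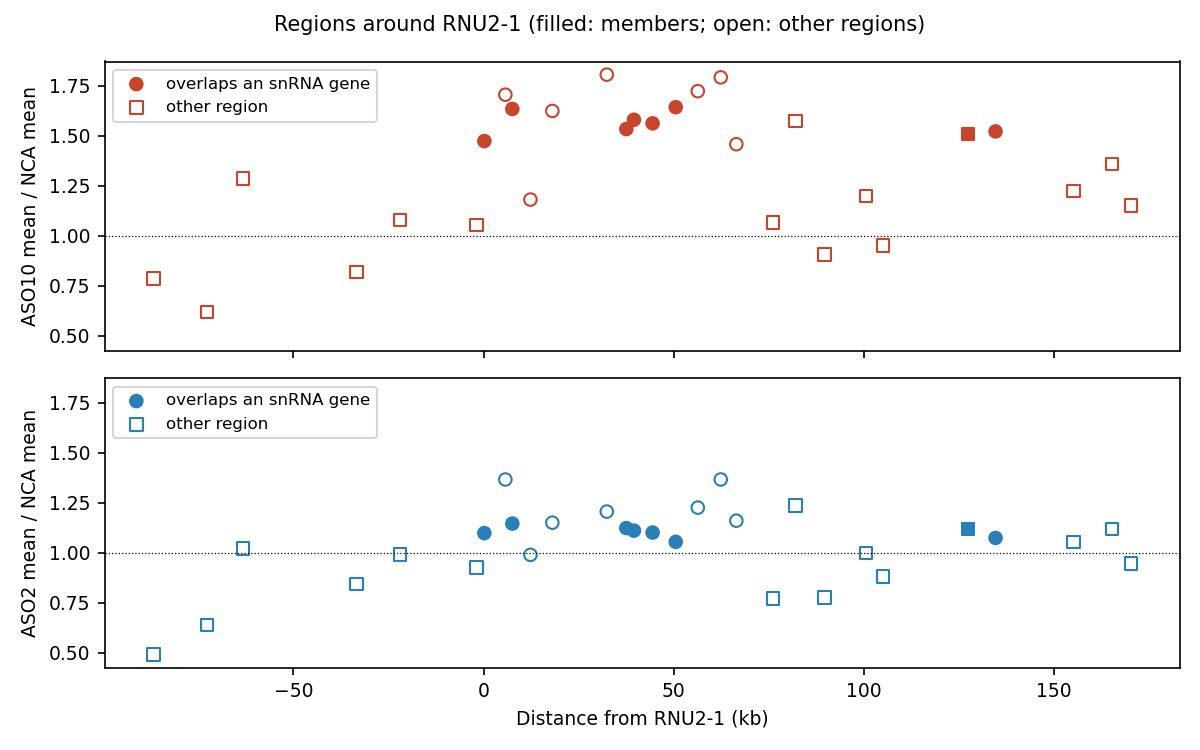
Ratio of the ASO10 mean (top) and of the ASO2 mean (bottom) to the NCA mean for regions of at least 2 CPM around RNU2-1, by distance from it in kb; circles overlap an snRNA gene, squares do not, and filled symbols are members. The 14 circles of the top panel lie between 1.18 and 1.81.

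Members also covered the genes of other spliceosomal snRNAs. Their counts are to be read beside the 0.866% of all regions of at least 2 CPM that were members. Of 19 regions over genes of U1, which recognises the 5′ splice site, 7 were members (RNU1-3, RNU1-4, RNVU1-14, RNVU1-18, RNVU1-26, RNVU1-28 and RNVU1-31), with ratios from 1.37 to 1.44. Over all 19 the ratio ran from 0.851 to 1.55 with a median of 1.27, ASO10 lay above NCA in each library in 12, and the ASO2 ratio ran from 0.637 to 1.203. Of 9 regions over the genes of U4, U5 and the minor spliceosome's U11, U12 and U4atac, 5 were members. The family's ratio ran from 0.939, at RNU5F-1, to 1.77 with a median of 1.498, and its ASO2 ratio from 0.641 to 1.22. RNU12 had 27.4, 24.3 and 28.6 CPM in NCA, 29.3, 25.5 and 30.0 in ASO2 and 41.8, 41.9 and 42.6 in ASO10, so ASO10 lay apart from both other groups. RNU5D-1 had the highest ratio of the family, 1.77, with 10.1, 13.7 and 11.2 CPM in NCA, 10.1, 13.8 and 9.04 in ASO2 and 21.1, 20.7 and 20.2 in ASO10. RNU5A-1 had 14.0, 14.8 and 19.4 CPM in NCA, 17.4, 19.4 and 16.7 in ASO2 and 23.5, 26.5 and 22.3 in ASO10. The region over RNU4-1 and RNU4-2 (ratio 1.41) also overlaps the start of SIRT4, and those over RNU11 (1.58) and RNU12 (1.57) lie in TAF12 and POLDIP3, so the signal cannot be assigned to 1 of the genes.

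The 70 snRNA regions also included genes transcribed by RNA polymerase III. Of these, the 6 regions over RNU6 genes, RNU6ATAC and RN7SK had ratios from 0.990 to 1.32 and 0 calls by edgeR, and the 15 over SNAR genes had a median ratio of 0.978 and 0 calls. Neither set held a member, and with so few regions and overall shares of 0.866% members and 0.876% called higher, these zeros are not a result about either class. Among 32 regions over small nucleolar RNA genes 4 were members: SNORD118 (U8), SNORD3A and SNORD3D (U3), which act in the processing of ribosomal RNA precursors, and the region over SNORA50C. SNORD3D had 23.4, 26.5 and 29.5 CPM in NCA, 28.4, 28.4 and 32.2 in ASO2 and 39.3, 40.0 and 37.4 in ASO10. SNORD3A had 21.2, 9.62 and 17.6 CPM in NCA, the second well below the others, and its ratio was 1.53.

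Of the gene lists, the integrated stress response held 3 members, all at gene starts. Regions near its genes numbered 91 at or above 2 CPM, and of 129 tested regions 5 were called higher and 0 lower under ASO10, beside 0.866% members and 0.876% called higher over all regions. Of its 26 gene-start regions 3 were members, against 1.74% of all gene-start regions of at least 2 CPM. Of the 3 members, DDIT4 was among those called by edgeR (adjusted p = 0.00275), and SESN2 (adjusted p = 0.0735) and PPP1R15A (adjusted p = 0.0705) were not. Its 26 gene-start regions had a median ASO10 ratio of 1.16 and a median ASO2 ratio of 0.964, beside 1.05 and 0.961 over all gene starts. DDIT4 and SESN2 both encode inhibitors of mTORC1 signalling, and PPP1R15A (GADD34) directs the removal of phosphate from the translation factor eIF2α.

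At the start of DDIT4 the NCA libraries had 31.1, 39.5 and 44.2 CPM, ASO2 40.3, 41.8 and 39.2, and ASO10 54.0, 53.6 and 55.2. SESN2 had 16.1, 19.6 and 18.996 CPM in NCA, 19.1, 18.5 and 20.003 in ASO2 and 23.8, 27.3 and 23.7 in ASO10. PPP1R15A had 19.4, 18.3 and 25.9 CPM in NCA, 24.5, 21.8 and 19.7 in ASO2 and 26.3, 28.9 and 30.7 in ASO10. ASO10 lay above both other groups at all 3 genes, by the narrowest margin at PPP1R15A, where NCA replicate 3 came within 1 CPM of the lowest ASO10 library.

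HERPUD1, a gene of endoplasmic reticulum-associated degradation, was the 1 member among 59 regions of the unfolded protein and heat shock list (1.69%, against 0.866% of all regions of at least 2 CPM). It had 21.8, 17.02 and 22.4 CPM in NCA, 23.03, 23.9 and 17.9 in ASO2 and 26.4, 29.3 and 30.0 in ASO10, so that ASO10 lay above both groups. The 19 gene-start regions of that list had a median ratio of 1.18, against 1.05 over all gene-start regions of at least 2 CPM. Of its 91 tested regions 2 were called higher and 0 lower by edgeR, beside 0.876% called higher over all regions. With loess offsets the ratios of DDIT4, SESN2, PPP1R15A and HERPUD1 were 1.30, 1.30, 1.28 and 1.33, and 0 of the 4 met the rule.

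**Figure D4:**
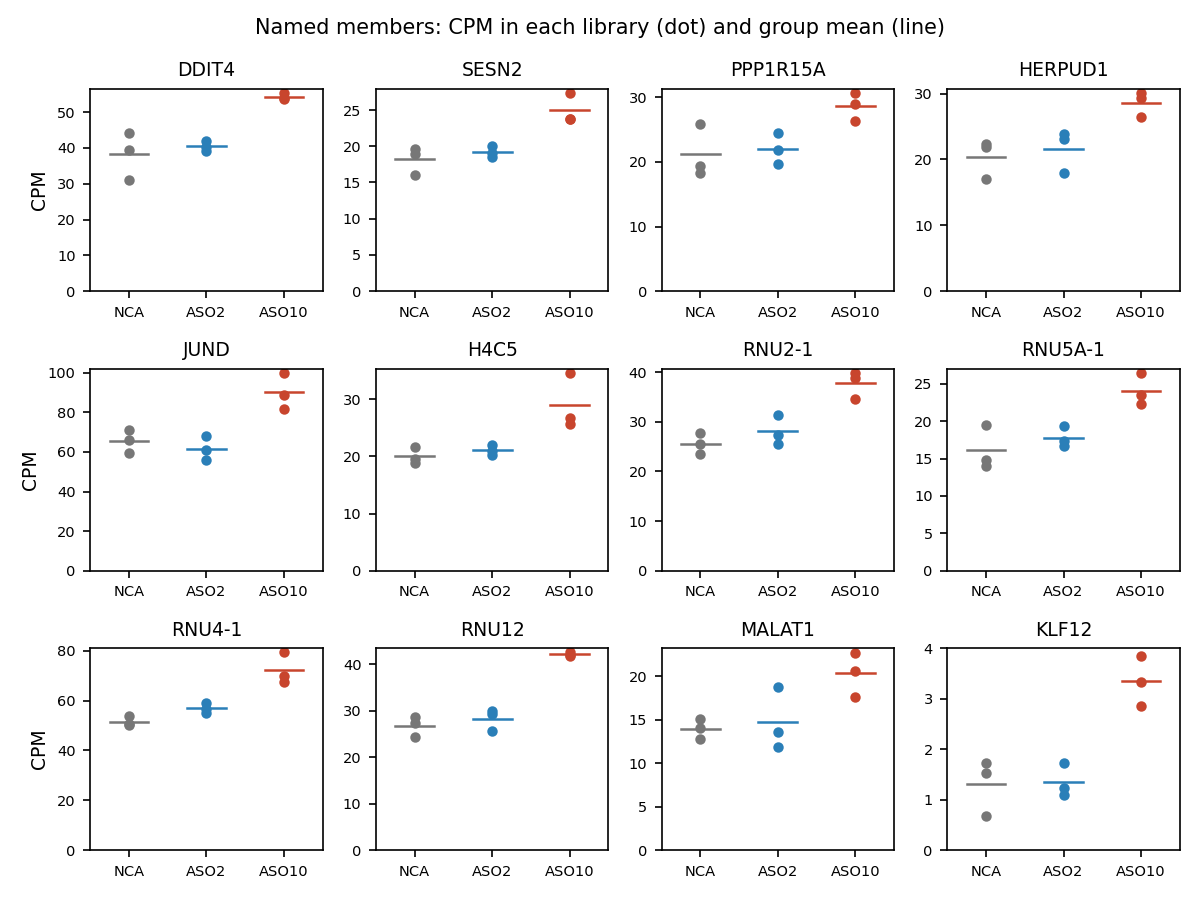
CPM in each library (dots) and group mean (lines) for 12 named members, on axes that start at 0. In each panel the 3 ASO10 libraries lie above the 3 NCA libraries, as the rule requires.

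The other lists held few members, and their counts are to be read against the 0.866% of all regions that were members. Of 81 regions near histone genes, 2 were members, at H4C5 and H4C11, which encode histone H4 of nucleosomes. The list's 47 gene-start regions had a median ratio of 1.203, against 1.05 over all gene-start regions of at least 2 CPM. H4C5 had 19.5, 18.9 and 21.7 CPM in NCA, 22.1, 20.2 and 21.0 in ASO2 and 34.6, 26.7 and 25.7 in ASO10, with ASO10 replicate 1 highest. The adrenergic list had 0 members among 162 regions, with 2 of 247 tested regions called higher, near the 0.876% over all regions, and 2 lower. The p53 targets had 0 among 37, and complex I genes 0 among 70. At the overall share these zeros are not a result about the lists. Single members lay near MEOX1 of the mesenchymal list (16.02 kb away, ratio 1.68) and BAK1 of the cell death list (24.8 kb, 1.36). Ribosomal protein genes held 1 member among 217 regions (0.461%, at RPL13A), mitochondrial ribosomal genes 2 among 143 (1.40%, at MRPS15 and MRPS28) and zinc finger genes 2 among 1132 (0.177%, at ZNF689 and ZNF704).

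The members of highest ratio were weak regions away from gene starts. The first was inside MYO15B, with 11, 13 and 15 counts in the NCA libraries (1.40, 1.60 and 1.69 CPM), 1.51, 1.75 and 1.83 CPM in ASO2, and 23, 53 and 31 counts in ASO10 (2.63, 5.89 and 3.85 CPM). ASO10 replicate 2 was far above the other 2 there. KLF12, a transcriptional repressor of the Krüppel-like family, held the next, 240 kb from its start, with 1.53, 1.73 and 0.674 CPM in NCA, 1.097, 1.24 and 1.74 in ASO2 and 2.86, 3.33 and 3.85 in ASO10. Others lay in the histone demethylase gene KDM2A (2.37), HNRNPUL1 (2.33), POFUT2 (2.29) and the sodium channel gene SCN8A (2.25). Outside genes they lay 130 kb from the transcription factor gene SP8 (2.19), 58.8 kb from ZFAT (2.17), 116 kb from USP12 (2.11) and 6.55 kb from the chloride channel gene ANO1 (2.08). In 210 of the 627 members the lowest library had under 20 counts, which limits the precision of their ratios.

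Of the 6 members of highest signal, 5 lay at protein-coding gene starts, and all 6 had ratios between 1.36 and 1.44. SPATC1L had 84.0, 75.2 and 81.6 CPM in NCA, 93.6, 91.2 and 80.01 in ASO2 and 108, 105 and 113 in ASO10. The 250 bases before its start hold a short sequence repeated in tandem, and how reads that match several places were treated is not given. SLC35E2B had 82.1, 63.4 and 79.6 CPM in NCA, 75.8, 83.1 and 73.9 in ASO2 and 109, 106 and 107 in ASO10. CIC, which encodes the repressor capicua, had 79.6, 71.2 and 75.8 CPM in NCA, 70.5, 81.0 and 77.0 in ASO2 and 104, 97.4 and 108 in ASO10. In all 3 the ASO10 libraries lay apart from the other 6. JUND, an AP-1 transcription factor gene, had 71.1, 59.6 and 66.1 CPM in NCA, 60.9, 68.0 and 55.8 in ASO2 and 100, 81.7 and 88.8 in ASO10. The regions at ENSA, an inhibitor of the phosphatase PP2A, and over RNVU1-28, the snRNA gene named above, completed these 6 with ratios of 1.39 and 1.44. With loess offsets the ratios of SPATC1L and CIC were 1.22 and 1.23.

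Most members stood alone: 516 had no other member within 100 kb, 78 formed 39 pairs, and 33 fell into 8 groups of 3 or more. The largest group was the U2 array, with 8 members among 20 regions. On chromosome 19, 5 of 14 regions were members between RFX1 and ADGRL1 (chr19:14005650-14207635), at the starts of RFX1, SAMD1, MISP3, ADGRL1 and ASF1B, a histone chaperone gene. On chromosome 11, 4 of 10 regions were members (chr11:65381814-65498030), including the starts of SLC25A45, of the long non-coding RNA gene ENEMAL and of MALAT1, an abundant nuclear long non-coding RNA. MALAT1 had 15.1, 12.8 and 14.1 CPM in NCA, 11.9, 18.7 and 13.6 in ASO2 and 22.7, 20.7 and 17.6 in ASO10, so that ASO2 overlapped ASO10 there. The median ratio over all regions was 1.346 in the chromosome 11 stretch and 1.09 in the chromosome 19 stretch. On chromosome 16, 3 of 10 regions were members around NTHL1, PKD1 and RAB26. On chromosome 13, 4 of 44 regions were members in a stretch at least 1675 kb from the nearest protein-coding gene, TUBA3C. The median ratio over the 44 was 1.05. How reads that match several places were treated is not given, so values in this stretch may be uncertain too.

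Members within 100 kb of a protein-coding gene were nearest to 508 different genes, and 22 of these had more than 1. CCDC200 had 6, all in the U2 array. MARCKS, a substrate of protein kinase C, had 2 neighbouring members, the stronger in ratio (1.68) at 9.19, 9.87 and 8.54 CPM in NCA, 8.77, 8.86 and 7.76 in ASO2 and 15.5, 13.9 and 16.9 in ASO10. KDM2A, FANCC, SLC25A39 and TMEM107 each had 1 member at the start and 1 farther off, while both members of ZFHX4 lay inside the gene. At KDM2A the start region had a ratio of 1.45 at a higher signal, with 37.1, 36.1 and 36.7 CPM in the ASO10 libraries, than the inner one with its 3.31, 2.00 and 4.47 CPM.

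Chromosomes 16, 17, 19 and 22 held 168 members, 26.8% of them, against 10.92% of the regions of at least 2 CPM. Members were 2.49% of such regions on chromosome 17, 2.26% on 22, 2.22% on 19 and 1.49% on 16, and 0.284% on chromosome 5. At gene starts alone the share was 5.74% on chromosome 22, 4.93% on 17 and 4.06% on 19, while 0 of 612 gene-start regions on chromosome 5 were members. Over all gene-start regions of at least 2 CPM it was 1.74%. The median ASO10 ratio of all gene-start regions was 1.16 on chromosome 22, 1.11 on 17 and 1.1005 on 19, and 1.01 on chromosome 5. With loess offsets, 20.9% of the members lay on those 4 chromosomes. No member lay on chromosome Y or on unplaced sequence.

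**Figure D5:**
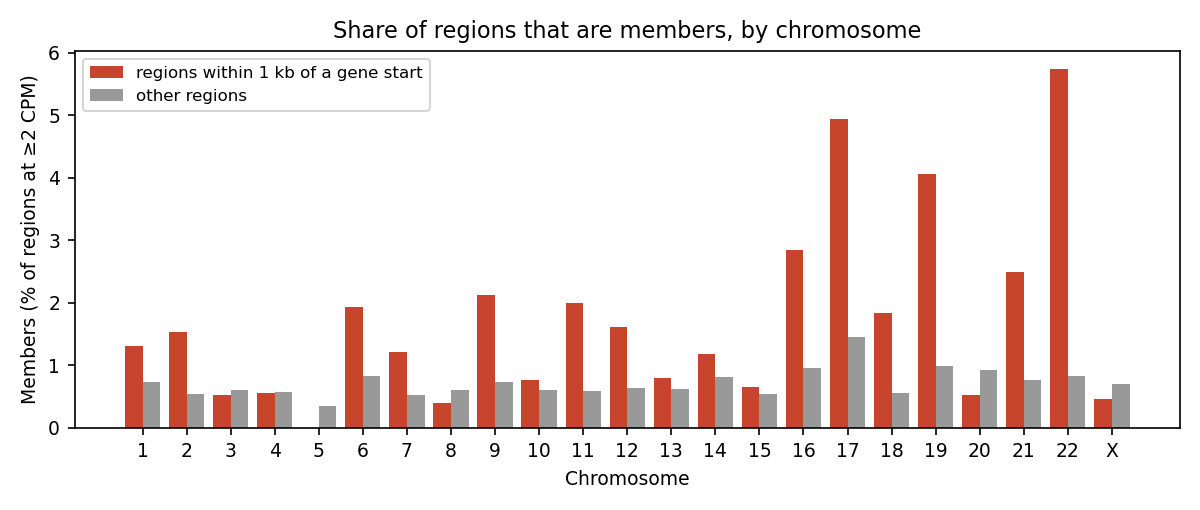
Members as a percent of the regions of at least 2 CPM on each chromosome, for regions within 1 kb of a protein-coding gene start and for other regions. The bars for gene starts reach 5.74% on chromosome 22 and 0 on chromosome 5.

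Promoter windows of 300 bases (250 before to 50 after the start, RefSeq, GRCh38.p14) overlapped 202 members, which matched 295 windows. Their GC content had a median of 68.3%, against 66.0% for 16837 windows at regions of at least 2 CPM and 58.7% for all 34943 windows. The share of windows that belonged to members rose with GC content, from 0.930% of those under 50% GC to 2.18% of those with 70 to 80% and 2.58% above 80%. GC content of the counts was not corrected for, and its part in the choice of members was not tested.

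The motifs were searched on both strands of those windows. CCAAT, the NF-Y motif, was in 47.8% of the members' windows, 35.1% of the windows at regions of at least 2 CPM and 34.6% of all. GGGCGG, the GC box of SP and KLF factors, was in 83.7%, 70.8% and 44.9%. TGACGTCA, the cAMP response element, was in 4.07%, 3.21% and 1.84%, and CACGTG, the E-box, in 11.9%, 9.71% and 7.23%. Shares were lower than in the windows at all regions of at least 2 CPM, a set not matched to the members on signal, for CCGGAAG, an ETS motif (12.5%, 17.9% and 10.2%), for GATAAG, the GATA motif (1.69%, 3.63% and 6.37%), and for the ATF4-CEBP letters TGATGNAA (0.678%, 1.57% and 3.62%), which include each match of TGATGCAAT (0%, 0.107% and 0.238%). TGANTCA (AP-1), GCGCATGC (NRF1) and AAGATGGC (YY1) were in 3.73%, 5.42% and 5.42% of the members' windows and in 4.29%, 5.50% and 4.75% of those at regions of at least 2 CPM. GGGCGG and CCAAT matches can overlap other motifs, and windows of 1 member can overlap each other, so windows are not independent. A match is a description of these letters and does not show a factor at the site.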

How the data were processed

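The values deposited by the authors are raw, whole-number counts in 148797 regions shared by 9 ATAC-seq libraries. Per the submitters' processing notes, FastQC, Bowtie2 2.2.6, SAMtools, MACS2 2.1.2 and DESeq2 1.42.0 were used with hg38 (GRCh38). Which step each tool served, the read filters, the Tn5 shift, the treatment of reads that match several places and whether reads or pairs were counted are not given in the sources used here. Genome sequence was not used here.

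CPM was the count scaled to a common column sum per library, and the rule was applied to it. Members, gene lists and tests were chosen with earlier results of these data known. Counts were also fitted with edgeR 4.0.16 (R 4.3.3; filterByExpr by group, TMM, robust quasi-likelihood test, all 9 libraries, a term for each group), with Benjamini-Hochberg adjustment over 119417 regions. As no label gives separate cultures, p-values measure only the spread between these samples, which may be technical. Replicates differed by more than counting noise (chi-square per degree of freedom 2.93 to 3.65). Same-numbered libraries did not deviate together (correlations from -0.036 to 0.013), so the numbers were not used as pairs. In simulated counts for 119417 regions, with 200 changed by 2-fold between ASO10 and NCA, the fit recovered 22.0%, and 85.3% of the 34 above 8 CPM, with 2 false calls among 46. The members had a median ratio of 1.45, and 16 of 627 reached 2. The recovery of changes as small as most of theirs was therefore not measured.

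Gene positions and promoter windows came from RefSeq tables (GRCh38.p14). The start of a gene was taken from the promoter table, or either end of the gene where it had none, so some gene stops count as starts. A region was assigned to its nearest protein-coding gene within 100 kb. Members were named as the 10 of highest ratio, the 6 of highest mean CPM, those near listed genes, the 3 on each side of the ratio threshold, the 5 largest groups within 100 kb, and up to 10 genes with several members. The snRNA and other small RNA genes were chosen after their values were seen, as was MALAT1 among the members of its group. Alternatives were DESeq2 1.42.0, limma-voom (limma 3.58.1), other scalings, filters and thresholds, a replicate block, and leaving out each library. Python 3.11.15 with pandas 2.3.3 served for the descriptions and matplotlib 3.10.9 for the plots. Some results are not reported here.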

Additional observations from a re-analysis of the deposited data

How the results depend on the processing

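Of 118 alternatives to the counts and shares above, 79 stayed within 1.5 times the main count or within the binomial interval of the main share, and 39 did not. For 82 named regions the ratio was recomputed under 3 scalings, and for 29 of them also without each library. Of these 507 ratios, 500 stayed within the spread between replicates and 0 fell below 1; the lowest was 1.22. The 7 that moved were all under loess offsets. The number of members was 367 with a mean CPM of at least 5, 1376 with an ASO10 mean at least 25% above NCA, 234 with a ratio of at least 1.5, 978 with a wider ASO2 band (from 0.8 times the NCA mean), 1487 without the separation of libraries, and 599 to 1164 when 1 library was left out, with 393 to 543 of the 627 kept. The 3 highest, 997, 1143 and 1164, came without ASO10 replicates 1, 2 and 3, where fewer libraries had to be separated. The share at gene starts was 21.0% with loess offsets, 42.3% within 5 kb (against 23.9% of regions), 30.5% with tabled starts only, and 25.4% to 37.2% when 1 library was left out. Members over snRNA genes were 11 with loess offsets and 17 to 22 when 1 library was left out. Regions called higher under ASO10 numbered 645 with limma-voom and 681 with loess offsets, and 350 to 1160 when 1 library was left out (350, 685 and 385 without ASO10 replicates 1, 2 and 3; 409, 438 and 615 without NCA replicates 1, 2 and 3). Members called higher were 113 with limma-voom and 72 with loess offsets against NCA, 50 to 188 when 1 library was left out, and 40 to 130 against ASO2. The cause of these shifts was not tested. With a replicate block, 128 members were called higher than NCA, 106 higher than ASO2 and 0 under ASO2 against NCA, and 783 regions in all were called higher; every one of these lay within 1.5 times the count without the block. The tabled starts, the snRNA counts and the ratios of named regions were added as alternatives after seeing the data. Depth limits weak members most, since 210 had a library under 20 counts.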

Other observations

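The same rule turned around, with each ASO10 library below each NCA library, a mean lower by the same factor and ASO2 within the same band, was met by 1221 regions, against 627 members. Each ASO10 library lay below each NCA library in 6493 regions of at least 2 CPM and above in 6905.

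Long non-coding RNA starts lay within 1 kb of 54 members (8.61%, against 5.08% of regions of at least 2 CPM). Of 183 regions over microRNA genes, 5 were members (2.73%, against 0.866% of all regions of at least 2 CPM). By edgeR 8 were called higher and 1 lower under ASO10, beside 0.876% called higher over all regions. The microRNA regions had a median signal of 15.8 CPM. At nearer signal, members were 0.905% of all regions from 8 to 16 CPM and 1.54% from 16 to 32 CPM. Members over 1 Mb from any protein-coding gene numbered 29 (4.63%, against 4.48% of regions). Smaller groups of members not described above, chosen after their values were seen, included pairs at HOXD9 and HOXD10 (1.38 and 1.52), at SMAD7 (1.354 and 1.497), at OAZ1 (1.46 and 1.58) and at EGLN3 (1.365 and 1.44).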
